A study of Mus musculus and Homo sapiens with 9 samples.

Results

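The R-loop and protein binding peaks analysed here were those that lay at the ends of protein-coding genes. A peak was taken when its midpoint fell within 1 kb of the 3′ end of a protein-coding gene and over 3 kb from every annotated transcription start site (TSS), with gene ends and TSSs from GENCODE M21 for mouse (mm10) and GENCODE v44 for human (hg38). Across the 9 CUT&Tag peak lists, 1073 of 102544 peaks met this rule, 526 of them in 5 lists from mouse embryonic fibroblasts (MEFs) and 547 in 4 lists from HEK293 cells. They fell at the ends of 476 mouse and 486 human genes.

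An R-loop is a structure in which nascent RNA pairs with its template DNA and leaves the other DNA strand unpaired. At gene ends, RNA polymerase II transcribes past the polyadenylation signal, the transcript is cleaved, and polymerase is released further downstream. R-loops form over such pause and termination regions of some genes, where helicases such as DHX9 and the nuclease XRN2 are known to act.

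CUT&Tag tethers a transposase to an antibody on chromatin, and the S9.6 antibody binds DNA-RNA hybrids. The 4 mouse S9.6 lists came from MEFs of Mcm8 wild-type embryos (WT), MEFs of Mcm8 knockout embryos (KO), MEFs given a control shRNA (shControl) and MEFs with Ddx5 knocked down by shDdx5 adenovirus. The mouse control list came from wild-type MEFs with no primary antibody. MEFs were made from the trunks of mid-gestation embryos and immortalised with SV40 lentivirus, and the labels do not give the Mcm8 genotype of the shControl and shDdx5 cells. HEK293, an established human embryonic kidney line, gave the lists for mouse IgG, for anti-FLAG after transfection of a FLAG-MCM8 plasmid, for S9.6, and for S9.6 after transfection of the plasmid labelled RNH1, which in the study stands for RNase H1, the enzyme that digests the RNA of a hybrid. FLAG-MCM8 was expressed from a plasmid, so its peaks are not those of the endogenous protein. Each group held 1 library, so no p-value was computed, and every 95% interval below covers counting error only, not the spread between cultures.

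Several of these peaks lay beyond the gene in sequence that no annotated exon covered. The 101 bases around the summit, the base of highest signal, are given here for some of the genes that recurred between lists or headed a list. They are read 5′ to 3′ on the strand of the gene from mm10 or hg38. Capitals mark runs of 3 or more G.
Sertad1, KO, chr7:27490870-27490970 (mm10, + strand): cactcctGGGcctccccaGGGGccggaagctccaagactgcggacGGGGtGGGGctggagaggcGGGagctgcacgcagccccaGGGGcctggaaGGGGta
SERTAD1, S9.6 in HEK293, chr19:40421163-40421263 (hg38, - strand): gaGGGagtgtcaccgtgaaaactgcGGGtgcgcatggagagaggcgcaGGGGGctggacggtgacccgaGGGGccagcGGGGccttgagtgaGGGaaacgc
Fhl3, WT, chr4:124709126-124709226 (mm10, + strand): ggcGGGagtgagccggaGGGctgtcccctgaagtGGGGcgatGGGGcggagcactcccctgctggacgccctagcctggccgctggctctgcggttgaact
BC005537, KO, chr13:24816662-24816762 (mm10, + strand): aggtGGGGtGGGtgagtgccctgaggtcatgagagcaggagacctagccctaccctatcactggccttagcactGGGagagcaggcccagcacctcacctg
Wwc1, KO, chr11:35838199-35838299 (mm10, - strand): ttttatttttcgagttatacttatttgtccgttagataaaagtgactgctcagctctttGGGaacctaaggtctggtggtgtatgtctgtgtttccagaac
CCDC115, FLAG-MCM8, chr2:130337234-130337334 (hg38, - strand): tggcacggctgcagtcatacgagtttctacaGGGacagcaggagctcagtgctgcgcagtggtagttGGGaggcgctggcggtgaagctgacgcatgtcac
CCDC115, S9.6 in HEK293, chr2:130337476-130337576 (hg38, - strand): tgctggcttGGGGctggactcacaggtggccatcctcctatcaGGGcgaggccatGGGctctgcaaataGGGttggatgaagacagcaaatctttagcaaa
GNG12, S9.6 in HEK293, chr1:67700852-67700952 (hg38, - strand): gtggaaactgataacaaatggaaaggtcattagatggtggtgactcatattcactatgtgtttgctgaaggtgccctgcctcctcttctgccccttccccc
TBC1D22A, IgG, chr22:47176409-47176509 (hg38, + strand): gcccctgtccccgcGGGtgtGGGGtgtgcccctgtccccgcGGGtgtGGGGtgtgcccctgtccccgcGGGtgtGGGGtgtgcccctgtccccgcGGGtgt
The window of Sertad1 in KO held 7 G runs with a G + C content of 73.3%, and that of its human counterpart SERTAD1 held 6 with 68.3%. These values depended on where each list had its summit. The Sertad1 window held 1 run at 61.4% in WT and 8 at 67.3% in shDdx5. That of Fhl3 held 4 at 71.3% in WT, 3 at 70.3% in shDdx5 and 1 at 52.5% in KO. By contrast, the Wwc1 window held 1 run at 38.6% G + C in KO, as it did at 45.5% in WT and 48.5% in shControl. The GNG12 window in S9.6 held none on this strand but 3 runs of C. The IgG window beyond TBC1D22A, a control peak, was a tandem repeat of 78.2% G + C with 7 G runs. On either strand, a run of at least 3 G (GGG or CCC) lay in the 101 bases around the summit of 83.0% to 96.8% of the gene-end peaks of a list, and of 81.0% to 93.6% of the peaks inside genes, so such a run was common to both. The difference passed counting error in shDdx5, at 7.98 percentage points (2.65 to 10.5), and in S9.6 + RNH1, at 4.61 (0.378 to 6.74), and in no other list.

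Gene-end peaks were a small class in every list. In WT MEFs, 82 of 6481 peaks lay at gene ends, a share of 1.27% (1.02 to 1.57). There were 111 of 9605 in KO MEFs (1.16%, 0.961 to 1.39), 167 of 12259 in shControl MEFs (1.36%, 1.17 to 1.58) and 113 of 11768 in shDdx5 MEFs (0.960%, 0.799 to 1.15). The list with no antibody held 53 of 4314 peaks there (1.23%, 0.941 to 1.60), a share inside the interval of each of the other MEF lists except shDdx5. In HEK293 cells, gene-end peaks made up 119 of 17178 in IgG (0.693%, 0.579 to 0.828), 119 of 13295 in FLAG-MCM8 (0.895%, 0.749 to 1.07), 155 of 15147 in S9.6 (1.02%, 0.875 to 1.20) and 154 of 12497 in S9.6 + RNH1 (1.23%, 1.05 to 1.44). The places where such a midpoint can lie cover 25.8 Mb, or 0.976% of the mouse genome, at 15746 gene ends, and 22.2 Mb, or 0.755% of the human genome, at 13557 gene ends. MEF and HEK293 lists differ in build and calling threshold, and their counts were not compared.

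Per Mb of sequence, peaks were denser at gene ends than in gene interiors, meaning protein-coding genes over 3 kb from a TSS and away from gene ends, in all 4 S9.6 MEF lists, in FLAG-MCM8 and in both HEK293 S9.6 lists. In HEK293 cells, S9.6 had 6.99 peaks per Mb at gene ends against 3.55 in gene interiors, a ratio of 1.97 (1.67 to 2.31), and S9.6 + RNH1 had 6.95 against 2.94, a ratio of 2.36 (2.01 to 2.78). The ratio of these peak counts between the lists, S9.6 + RNH1 to S9.6, was 1.20 times as high at gene ends as in gene interiors (0.956 to 1.51), which did not exceed counting error. In MEFs the WT list gave 1.44 (1.16 to 1.80) and the KO list 1.27 (1.05 to 1.54), while shControl gave 1.37 (1.17 to 1.60) and shDdx5 1.21 (1.003 to 1.46). FLAG-MCM8 gave 1.32 (1.10 to 1.58). The controls did not show an excess beyond counting error, with 1.15 (0.876 to 1.52) for no antibody and 0.933 (0.778 to 1.12) for IgG. The interval of the no-antibody list, which was the smallest, spanned the ratios of all 4 S9.6 MEF lists, so a difference from this control was not detectable in MEFs. Several of these calls were lost under other settings. Within 500 bp of the gene end the ratio was 1.14 (0.807 to 1.61) in WT, 1.22 (0.931 to 1.60) in KO, 0.904 (0.669 to 1.22) in shDdx5 and 1.22 (0.936 to 1.59) in FLAG-MCM8. The lower bound in shDdx5 was 0.999 without peaks that overlap a control peak, 0.995 with RefSeq starts added and 0.983 over 5 kb from a TSS, and in FLAG-MCM8 it was 0.992 over 5 kb from a TSS. Among peaks whose q did not exceed 0.05, WT gave 1.34 (0.814 to 2.21) and shControl 1.36 (0.966 to 1.92), and FLAG-MCM8 gave 1.29 (0.948 to 1.75) at a q of 1e-05 or lower. Both HEK293 S9.6 lists stayed above gene interiors beyond counting error within 500 bp, over 5 kb from a TSS and at a q of 1e-05 or lower.

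**Figure D1:**
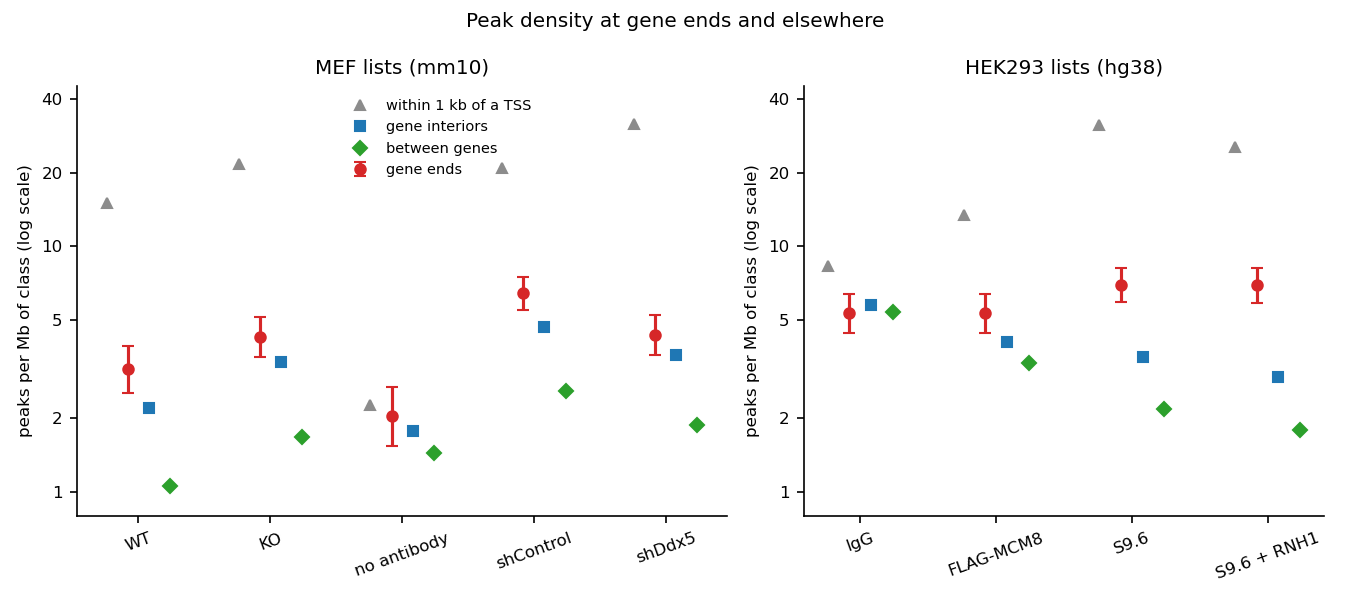
Peaks per Mb, on a log axis, for 4 classes of sequence in each list: within 1 kb of a TSS (grey triangles), gene ends (red circles, with exact 95% Poisson intervals), gene interiors (blue squares) and outside protein-coding genes (green diamonds). The last class, labelled between genes, lies over 3 kb from a TSS and away from gene ends, and includes noncoding genes. Gene ends lay above gene interiors in every list but IgG, and far below promoters in the S9.6 lists, for example 6.99 against 31.2 peaks per Mb in HEK293 S9.6.

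Promoters were denser still. Within 1 kb of a TSS, KO MEFs had 21.7 peaks per Mb against 4.29 at gene ends, and shDdx5 MEFs had 31.6 against 4.37. In the list with no antibody these densities were 2.27 and 2.05. Against all the rest of the genome, promoters included, the gene-end density ratio was 1.30 (1.05 to 1.62) in WT, 1.40 (1.20 to 1.63) in shControl, 1.36 (1.16 to 1.59) in S9.6 and 1.64 (1.40 to 1.92) in S9.6 + RNH1. It did not exceed counting error in KO (1.19, 0.983 to 1.43), no antibody (1.26, 0.962 to 1.65), shDdx5 (0.983, 0.817 to 1.18), IgG (0.918, 0.766 to 1.10) or FLAG-MCM8 (1.19, 0.992 to 1.42).

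Gene-end peaks of the MEF lists were about as weak as those in gene interiors, and weaker than promoter peaks. Their median fold over the local background, as the peak caller gave it at the summit, was 3.36 in WT, 3.37 in KO and shDdx5 and 3.27 in shControl, where gene interiors had 3.45, 3.47, 3.37 and 3.27 and promoters 3.73, 3.81, 3.84 and 3.68 in WT, KO, shDdx5 and shControl. With no antibody the median was 3.36 at gene ends and in gene interiors alike. The pileup behind these folds, the number of fragments over the summit recovered from the fold and the p, had a median of 9 at gene ends in WT, KO and shControl and 10.5 in shDdx5, over a local background of 1.86 to 2.27. In HEK293 S9.6 the median pileup was 22 at gene ends and 17 in gene interiors, but the background was 4.65 against 3.10, so the fold was lower at gene ends (3.92 against 4.27). S9.6 + RNH1 showed the same order, with a median pileup of 22 against 19 over a background of 5.02 against 3.64.

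A fold of at least 4 was reached by 7 of 82 gene-end peaks in WT (8.54%, against 22.3% of the whole list), 18 of 111 in KO (16.2%, against 24.7%), 17 of 167 in shControl (10.2%, against 20%) and 19 of 113 in shDdx5 (16.8%, against 28.6%). With no antibody it was 14 of 53 (26.4%, against 25.1%). These whole lists include promoters, and against gene interiors the differences were within counting error, at −6.30 percentage points (−11.0 to 1.91) in WT, 0.667 (−5.21 to 8.74) in KO, −4.22 (−8.12 to 1.40) in shControl and 1.94 (−4.00 to 10.0) in shDdx5. In S9.6 the count was 65 of 155 (41.9%, against 65.5%) and in S9.6 + RNH1 58 of 154 (37.7%, against 59.3%), where the differences from gene interiors were −20.3 percentage points (−28.0 to −12.3) and −18.9 percentage points (−26.4 to −10.8). FLAG-MCM8, with 101 of 119 (84.9%, against 86.8%), and IgG, with 73 of 119 (61.3%, against 58.9%), were close to their whole lists. Among peaks of at least 4-fold alone, the density ratio to gene interiors was 0.831 (0.392 to 1.76) in WT and 0.967 (0.597 to 1.57) in shControl, and 1.33 (0.828 to 2.13) in KO and 1.37 (0.864 to 2.17) in shDdx5, none beyond counting error. The excess in S9.6 was smaller at that fold (1.33, 1.04 to 1.70), as it was in S9.6 + RNH1 (1.57, 1.21 to 2.05).

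Adjusted for the whole list, 16 of 82 gene-end peaks had a q no higher than 0.05 in WT (19.5%, against 32.7% of all peaks), 31 of 111 in KO (27.9%, against 36.1%), 3 of 53 with no antibody (5.66%, against 8.76%), 34 of 167 in shControl (20.4%, against 28.1%) and 62 of 113 in shDdx5 (54.9%, against 60.5%). None of these shares differed from those of gene interiors in the same list beyond counting error. Most gene-end peaks of the MEF lists other than shDdx5 therefore had a q above 0.05.

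Midpoints fell on both sides of the gene end. The share beyond the end was 57.3% (46.5 to 67.5) in WT, 55.9% (46.6 to 64.7) in KO, 52.8% (39.7 to 65.6) with no antibody, 49.7% (42.2 to 57.2) in shControl and 47.8% (38.8 to 56.9) in shDdx5, where 51.0% of the available bases lie beyond. In HEK293 cells it was 58.8% (49.8 to 67.3) in IgG, 51.0% (43.2 to 58.7) in S9.6 and 53.9% (46.0 to 61.6) in S9.6 + RNH1, with 50.8% of bases available. At this setting these 8 lists did not depart from the available share beyond counting error. The control IgG did at a q of 1e-05 or lower (62.7%, 51.4 to 72.7) and over 5 kb from a TSS (64.8%, 54.4 to 73.9). So did S9.6 + RNH1 at a fold of at least 4 (63.8%, 50.9 to 74.9) and KO within 500 bp (64.8%, 51.5 to 76.2). FLAG-MCM8 had 49 of 119 peaks beyond the end, or 41.2% (32.7 to 50.2), and 70 inside the gene, which just passed counting error. That call was lost with summits in place of midpoints (43.0%, 34.5 to 51.9), at a fold of at least 4 (41.6%, 32.5 to 51.3), at a q of 1e-05 or lower (38.1%, 25 to 53.2), over 5 kb from a TSS (46.2%, 35.5 to 57.1) and with the ends of all transcripts (49.2%, 43.9 to 54.6). The call held within 500 bp (33.9%, 22.9 to 47.0) and without peaks that overlap a control peak (41.0%, 32.5 to 50.1).

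Midpoints on each side were then split at 500 bp from the gene end. Beyond the end, HEK293 S9.6 had 23 midpoints in the first 500 bp and 56 in the next 500 bp, a density ratio of far to near of 2.46 (1.52 to 4.0), and S9.6 + RNH1 had 29 and 54, a ratio of 1.88 (1.20 to 2.96). IgG had the same tilt, with 24 and 46 (1.94, 1.18 to 3.18), so the control antibody showed it too. FLAG-MCM8 gave 19 and 30 (1.60, 0.900 to 2.84). In MEFs the tilt beyond the end was within counting error, while inside the gene it passed in WT, with 11 near and 24 far (2.28, 1.12 to 4.66), and in shDdx5, with 22 and 37 (1.76, 1.04 to 2.98). KO MEFs went the other way beyond the end, with 35 near and 27 far, within counting error (0.775, 0.469 to 1.28).

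**Figure D2:**
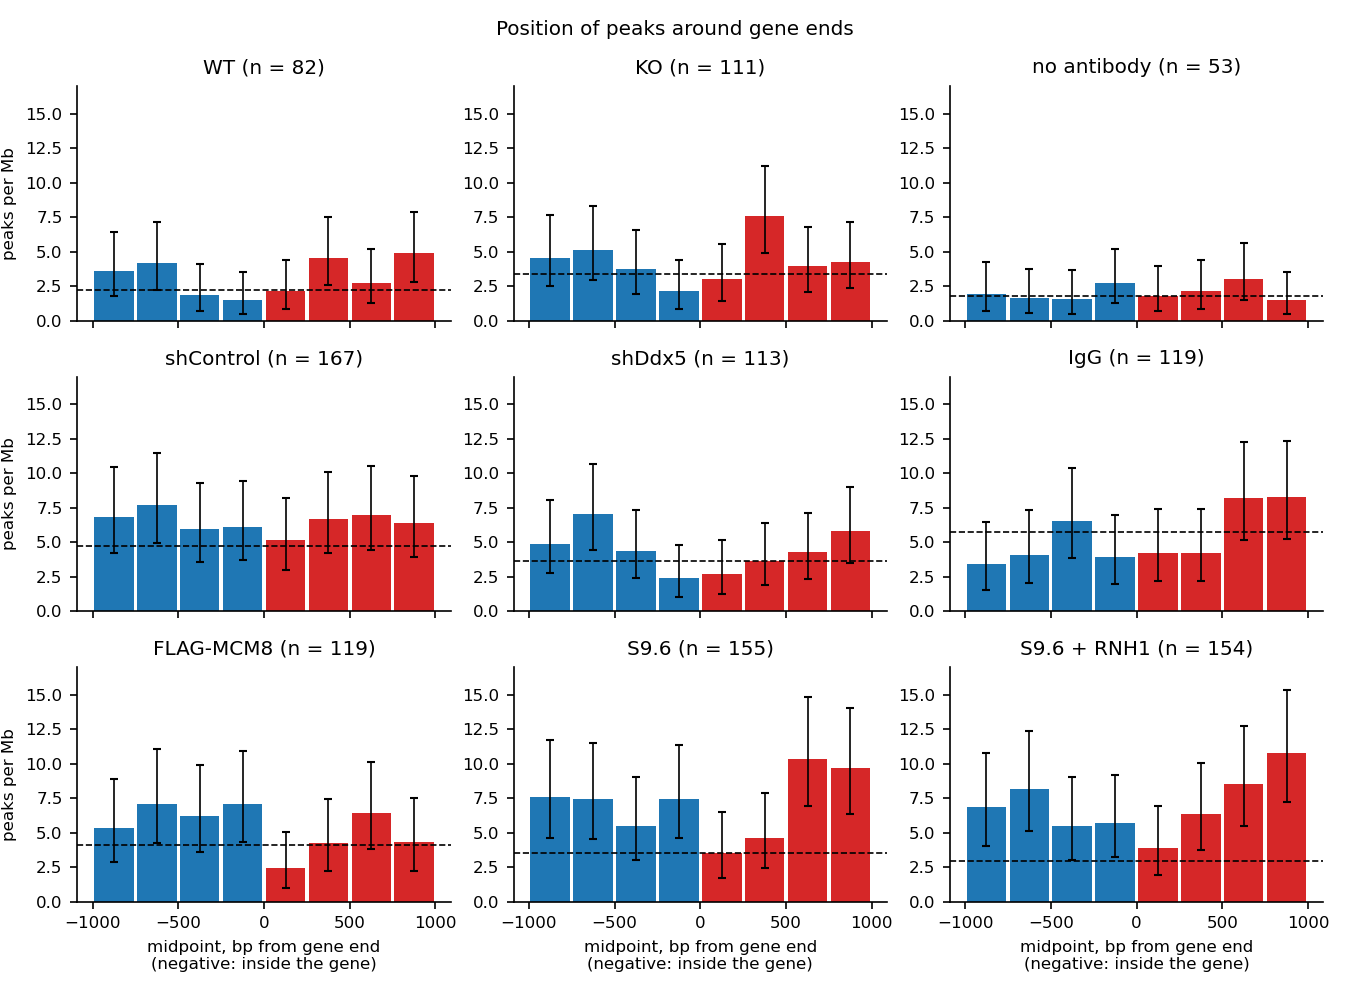
Peaks per Mb of available sequence in bins of 250 bp from 1 kb inside to 1 kb beyond the gene end, 1 panel per list. Blue bars lie inside the gene and red bars beyond it, error bars are exact 95% Poisson intervals, and the dashed line is the density in gene interiors. In S9.6 and S9.6 + RNH1 the red bars rise away from the gene end, from 10 and 11 peaks in the first bin to 27 and 30 in the last.

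By annotation, most gene-end peaks lay in a 3′ UTR or between genes just beyond one, which the rule itself largely sets. The share of available bases in each place is not given here. In WT MEFs, 20 of 82 were in a 3′ UTR (24.4%) and 40 between genes (48.8%). KO had 35 and 51 of 111, shControl 59 and 67 of 167, and shDdx5 35 and 37 of 113. In HEK293 cells, S9.6 had 57 of 155 in a 3′ UTR (36.8%) and 53 between genes (34.2%), S9.6 + RNH1 48 and 59 of 154, and IgG 32 and 54 of 119. FLAG-MCM8 had 46 of 119 in a 3′ UTR, or 38.7% (30.4 to 47.6), and 16 in coding exons, or 13.4% (8.45 to 20.7), where S9.6 had 7 of 155 in coding exons (4.52%, 2.2 to 9.03) and IgG 6 of 119 (5.04%, 2.33 to 10.6). A further 20 peaks in S9.6 (12.9%) and 24 in S9.6 + RNH1 (15.6%) lay beyond one gene but inside a neighbouring protein-coding gene. RefSeq, a second annotation, placed a TSS within 1 kb of 1 gene-end peak each in WT and KO, 2 in shControl, 4 in shDdx5 and 2 with no antibody.

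The sequence at gene-end summits was richer in G + C than at other peaks inside genes. Over 201 bases around the summit, the median G + C was 57.2% at gene ends and 54.2% in gene interiors in S9.6, 56.7% and 54.2% in S9.6 + RNH1, and 54.7% and 50.2% in FLAG-MCM8. IgG had lower G + C in both classes (49.8% and 45.3%), but its offset was as large as in FLAG-MCM8 and larger than in S9.6. Quartile ranges of gene ends and gene interiors overlapped in every list, and no interval was computed for the medians. In MEFs the medians were 50.7% and 48.8% in WT and shControl, 51.2% and 48.8% in KO, 52.2% and 49.8% in shDdx5, and 45.8% and 44.8% with no antibody. Promoter summits had 60.7% to 64.2% in the S9.6 and FLAG-MCM8 lists.

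**Figure D3:**
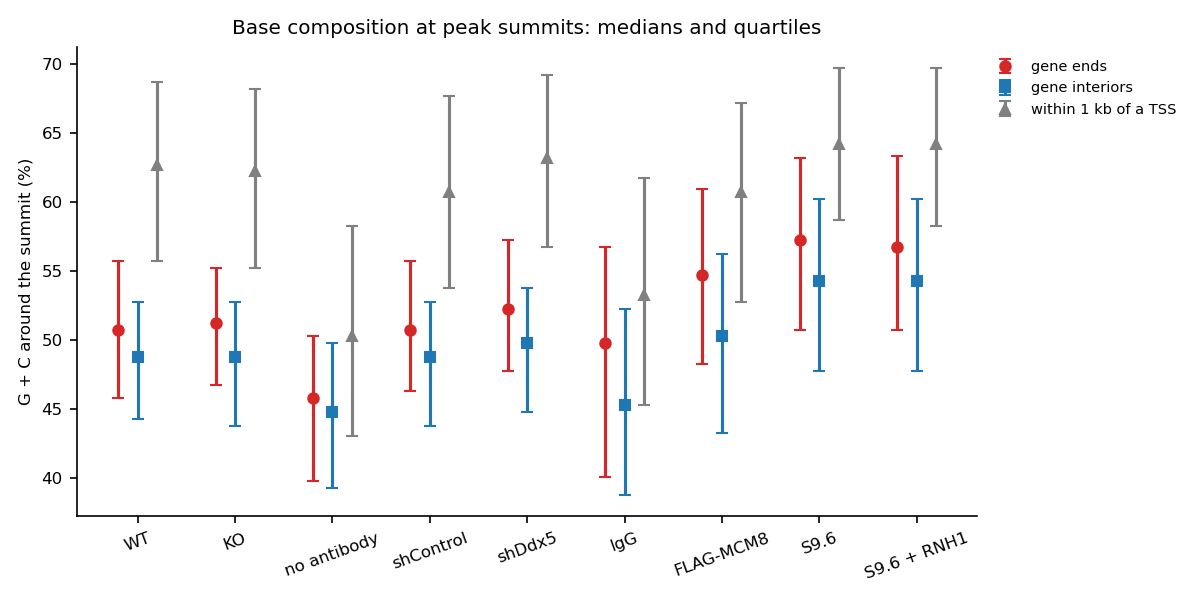
G + C content of the 201 bases around the summit in each list for gene-end peaks (red circles), gene-interior peaks (blue squares) and peaks within 1 kb of a TSS (grey triangles). Symbols are medians and bars run from the lower to the upper quartile. Gene-end medians lay above gene-interior medians in all 9 lists, the 2 control lists included.

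A G-quadruplex is a folded form of G-rich DNA that can arise on the unpaired strand of an R-loop, and was searched as 4 runs of at least 3 G with 1 to 7 bases between runs, on both strands. Such a motif lay in the 201 bases around 17 of 155 gene-end summits in S9.6 (11.0%, 6.96 to 16.9) and in 6.79% of gene-interior peaks, a difference of 4.18 percentage points (0.0774 to 10.1). KO MEFs gave 8 of 111 (7.21%) against 2.85%, a difference of 4.36 (0.780 to 10.8), and IgG 7 of 119 (5.88%) against 2.65%, a difference of 3.23 (0.192 to 9.01). WT had 2 of 82 (2.44%), no antibody 1 of 53 (1.89%), shControl 9 of 167 (5.39%), shDdx5 9 of 113 (7.96%), FLAG-MCM8 8 of 119 (6.72%) and S9.6 + RNH1 15 of 154 (9.74%), each within counting error of gene interiors. Where a G-quadruplex motif was present in S9.6, it lay on the gene's own strand at 6 summits and on the opposite strand at 11, and at 5 and 10 in S9.6 + RNH1. G-to-C skew, the excess of G over C divided by their sum on the gene's strand, had a median over the 201 bases at summits beyond the end that differed in sign between lists, from −0.0317 in FLAG-MCM8 and −0.0316 in WT to 0.0614 in shDdx5 and 0.0748 in S9.6, with 0.0210 in S9.6 + RNH1.

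The flanks of the genes themselves were also G + C rich, well beyond the summit. Over the last 1 kb of the gene, median G + C was 54.3% at the 155 genes with a gene-end peak in S9.6 and 41.2% at the 13402 without. For FLAG-MCM8 the values were 52.3% and 41.2%, and for IgG 45.7% and 41.3%. In mouse, genes with a peak had 49.3% in WT and 48.0% in KO, then 48.5% for shControl and 50.2% for shDdx5, against 43.0% or 43.1% at genes without, and 45.1% with no antibody. The G-quadruplex motif was searched only in 201 bases centred 500 bp inside the gene end, not over the whole 1 kb. It lay there in 14.2% of genes with a peak in S9.6 and 4.07% without (difference 10.1 percentage points, 5.48 to 16.5). The shares were 9.21% and 4.13% in S9.6 + RNH1 (5.08, 1.42 to 10.7) and 11.0% and 4.13% in FLAG-MCM8 (6.89, 2.41 to 13.8). In WT MEFs they were 12.2% and 3.52% (8.68, 3.23 to 17.5). These differences were within counting error in KO, shControl, shDdx5, no antibody and IgG. In 201 bases centred 500 bp beyond the end, the difference passed counting error in S9.6, with 9.03% and 3.42% (5.61, 2.02 to 11.2). It also passed in S9.6 + RNH1, with 7.24% and 3.44% (3.80, 0.633 to 9.06), and in no other list.

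The polyadenylation signal AATAAA stood in the last 50 bases of 61.0% to 61.7% of eligible genes without a peak in each list. It was present at 67.1% of genes with one in WT, 66.7% in KO, 62.3% in shControl, 58.7% in S9.6, 60.5% in S9.6 + RNH1, 60.2% in FLAG-MCM8, 58.5% with no antibody and 63.0% in IgG, all within counting error. It was less frequent at the 113 genes with a gene-end peak in shDdx5, where 51.3% had it (difference −9.83 percentage points, −19.0 to −0.780). A convergent neighbour, whose own end faces the gene end, did not differ in frequency beyond counting error between genes with and without a peak in any list, for example at 9.03% against 5.98% in S9.6 and 2.44% against 7.1% in WT.

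Genes with a peak at their end more often had one at their start in 3 lists. In shDdx5, 39 of 113 such genes (34.5%) also had a promoter peak, against 23.2% of eligible genes without a gene-end peak, a difference of 11.4 percentage points (3.20 to 20.5). In WT the shares were 16 of 82 (19.5%) and 11.4%, a difference of 8.07 (0.918 to 17.9). In S9.6 + RNH1 they were 49 of 152 (32.2%) and 23.7%, a difference of 8.54 (1.59 to 16.4). S9.6 gave 55 of 155 (35.5%) against 29.6%, within counting error (−1.28 to 13.7), as did KO, with 19.8% against 16.3%, and shControl, with 16.2% against 14.7%. FLAG-MCM8 had the opposite order, 9 of 118 (7.63%) against 11.1%, also within counting error (−7.03 to 2.83).

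The first comparison asked how R-loops changed when Mcm8 was lost. At gene ends, KO MEFs had 111 peaks and WT MEFs 82, a ratio of 1.35 (1.02 to 1.80), or 1.40 (0.999 to 1.97) over 5 kb from a TSS. The whole KO list was longer by a ratio of 1.48 (1.44 to 1.53), gene interiors by 1.53 (1.44 to 1.63) and promoters by 1.44 (1.37 to 1.52), and the gene-end ratio divided by that of all other peaks was 0.912 (0.685 to 1.22). Gene ends therefore did not differ detectably from the rest of the list. Counting peaks with a q of 0.05 or lower gave 31 in KO and 16 in WT, a ratio of 1.94 (1.06 to 3.54). At that q the whole lists held 3472 and 2118 peaks, a ratio of 1.64 (1.55 to 1.73) that lay inside the gene-end interval. The same peaks were rarely found in both. Of the KO gene-end peaks, 5 of 111 (4.50%, 1.94 to 10.1) shared at least 1 bp with a WT peak, against 16.5% of all KO peaks, and of the WT gene-end peaks 6 of 82 (7.32%, 3.40 to 15.1) shared with KO, against 24.5% of all WT peaks. Gene interiors overlapped about as rarely, at 6.11% and 9.49%, whereas promoter peaks overlapped at 33.7% and 48.6%.

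Ddx5 encodes DDX5, a DEAD-box RNA helicase that unwinds DNA-RNA hybrids. After its knockdown there were fewer peaks at gene ends, 113 in shDdx5 against 167 in shControl, a ratio of 0.677 (0.533 to 0.859), while the lists as wholes had a ratio of 0.960 (0.936 to 0.985). The share of peaks at gene ends was lower by 0.402 percentage points (0.131 to 0.675). Gene interiors fell in a like manner, with a ratio of 0.765 (0.728 to 0.803). So did peaks outside protein-coding genes, over 3 kb from a TSS and away from gene ends (0.726, 0.691 to 0.763). Promoter peaks rose by a ratio of 1.52 (1.45 to 1.58). Set against gene interiors, the gene-end ratio was 0.885 (0.693 to 1.13). This order turned at a q of 0.05 or lower, for the whole lists and gene interiors as well as at gene ends. There were then 62 gene-end peaks in shDdx5 and 34 in shControl, a ratio of 1.82 (1.20 to 2.77). The whole lists held 7119 and 3442, a ratio of 2.07 (1.99 to 2.15), and gene interiors had a ratio of 1.73 (1.58 to 1.89). With a fold of at least 4 there were 19 and 17 at gene ends, within counting error (1.12, 0.581 to 2.15). At that fold the whole lists held 3370 and 2455 (1.37, 1.30 to 1.45), but gene interiors stayed lower in shDdx5, with 425 against 538 (0.790, 0.696 to 0.897). Of shDdx5 gene-end peaks, 13 of 113 (11.5%, 6.85 to 18.7) overlapped a shControl peak, against 20.2% of all shDdx5 peaks, and 15 of 167 in shControl (8.98%, 5.52 to 14.3) overlapped a shDdx5 peak, against 19.4% of all.

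**Figure D4:**
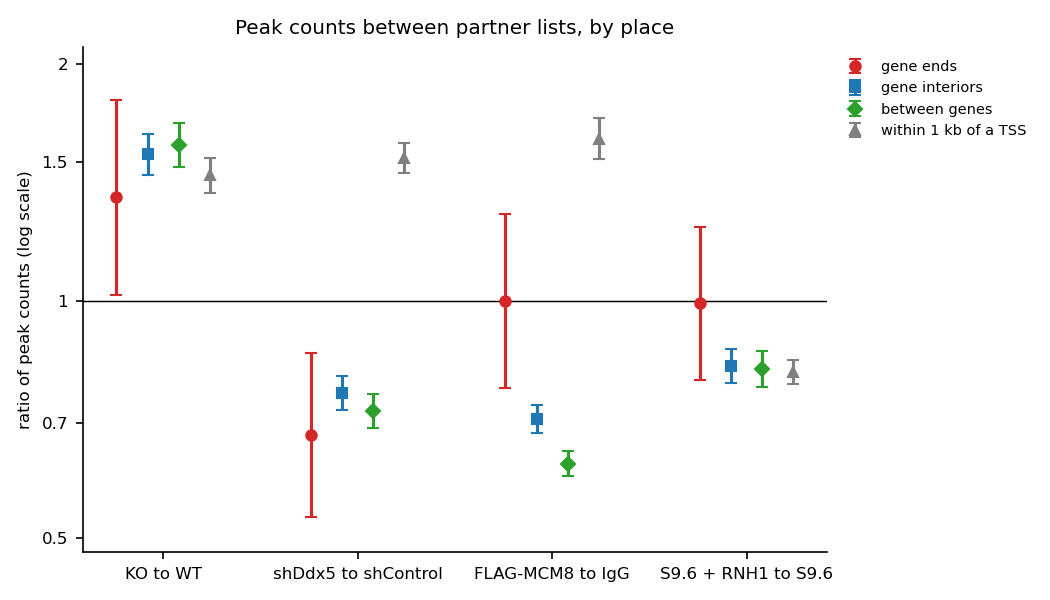
Ratios of peak counts between partner lists, on a log axis, for gene ends (red circles), gene interiors (blue squares), sequence outside protein-coding genes (green diamonds, labelled between genes) and within 1 kb of a TSS (grey triangles), with 95% Poisson intervals. Gene ends went with gene interiors in KO to WT and in shDdx5 to shControl, while for shDdx5 promoters moved to 1.52 and gene ends to 0.677.

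The list with no antibody bears on these MEF peaks. It overlapped 2 of 82 gene-end peaks in WT (2.44%, against 1.23% of all WT peaks), 1 of 111 in KO (0.901%, against 1.15%), 2 of 167 in shControl (1.20%, against 0.832%) and 1 of 113 in shDdx5 (0.885%, against 1.06%). Each share was near that of the whole list, and Lars2 accounted for 1 peak in every one.

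In HEK293 cells the comparisons concerned S9.6 signal with and without RNH1 and the sites that MCM8 binds. S9.6 had 155 gene-end peaks and S9.6 + RNH1 had 154, a ratio of 0.994 (0.795 to 1.24). All peaks had a ratio of 0.825 (0.806 to 0.845), promoters 0.813 (0.784 to 0.843) and gene interiors 0.827 (0.787 to 0.869). Relative to other peaks the gene-end ratio was 1.21 (0.964 to 1.51), which did not exceed counting error. Of the S9.6 gene-end peaks, 35 of 155 (22.6%, 16.7 to 29.8) overlapped a peak in S9.6 + RNH1, against 28.9% of the whole list, and 36 of 154 in S9.6 + RNH1 (23.4%, 17.4 to 30.7) overlapped an S9.6 peak, against 35.1%. The first of these lay above the 15.3% of gene-interior peaks by 7.27 percentage points (1.27 to 14.6), while the second, against 18.7%, was within counting error (4.65, −1.52 to 12.1). IgG overlapped 5 of 155 S9.6 gene-end peaks (3.23%, against 5.49% of all).

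FLAG-MCM8 and IgG each had 119 gene-end peaks, a ratio of 1.00 (0.776 to 1.29), in lists whose total counts had a ratio of 0.774 (0.757 to 0.792). Relative to other peaks the ratio was 1.29 (1.003 to 1.67), and relative to gene interiors 1.41 (1.09 to 1.83), whereas promoter peaks had a ratio of 1.61 (1.51 to 1.71). Few FLAG-MCM8 gene-end peaks overlapped an S9.6 peak, with 8 of 119 (6.72%, 3.45 to 12.7) sharing a base, against 13.5% of all FLAG-MCM8 peaks and 6.73% of those in gene interiors. With S9.6 + RNH1 peaks counted as well, it was 13 of 119. The absence of a peak from 1 library does not show that no R-loop was present. IgG overlapped 2 of 119 (1.68%, against 5.01% of all).

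Few genes carried an end peak in more than 1 list. In the 4 S9.6 MEF lists, 426 genes had at least 1 gene-end peak, of which 390 had it in 1 list, 27 in 2, 7 in 3 and 2 in all 4. Between the HEK293 S9.6 and S9.6 + RNH1 lists, 34 of 273 genes were shared, or 21.9% of the S9.6 genes and 22.4% of the others. WT and KO shared 7 genes (8.54% of WT genes and 6.31% of KO genes), and shControl and shDdx5 shared 12 (7.19% and 10.6%). By overlap of peaks, rare sharing was not particular to gene ends. Of KO peaks, 6.11% in gene interiors and 16.5% of all overlapped a WT peak. These shares were 8.75% and 20.2% for shDdx5 with shControl, and 15.3% and 28.9% for S9.6 with S9.6 + RNH1.

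Lars2, which encodes the mitochondrial leucyl-tRNA synthetase, had by far the strongest gene-end peak. It lay in the 3′ UTR about 640 bp inside the end, at chr9:123461792-123462254 in KO, and its fold was 29.5 in WT against 32.0 in KO, and 23.8 in shControl against 28.5 in shDdx5. It ranked 4, 3, 5 and 3 by q in those lists. The same site had a fold of 11.3 and rank 2 with no antibody, so signal there was high without S9.6.

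The other genes found in at least 3 S9.6 MEF lists had no gene-end peak with no antibody. Wwc1, which encodes the Hippo pathway scaffold KIBRA, was the only other gene in all 4 lists, with a fold of 3.37 in WT against 4.17 in KO, and 3.22 in shControl against 3.68 in shDdx5. Its peaks lay 171 to 461 bp beyond the end. The −log10 q was 1.25 in WT against 3.04 in KO, and 0.584 in shControl against 2.09 in shDdx5, so the peak passed a q of 0.05 in KO and shDdx5 only.
Sertad1 encodes a co-regulator of E2F-driven transcription. Its peak beyond the end, at chr7:27490722-27491177 in KO, had a fold of 3.60 in WT, 6.19 in KO and 4.70 in shDdx5, with a pileup of 14, 25 and 17, and shControl had no peak at this gene end. It ranked 81 by q in KO, behind Lars2 only among gene ends. Fhl3, a LIM-domain protein gene, had a fold of 3.50 in WT, 3.30 in KO and 4.54 in shDdx5, 407 to 480 bp beyond the end. Mrpl58 encodes a peptidyl-tRNA hydrolase of the mitochondrial ribosome, and its fold was 4.56 in KO, 3.99 for shControl and 3.59 for shDdx5.
The other recurrent genes were Slc30a4, a zinc transporter gene, with a fold of 5.82 in WT, 4.42 in shControl and 6.36 in shDdx5 in its 3′ UTR, Itln1, a lectin gene, with 3.90, 4.50 and 3.89 in the same lists, and Ccdc97 and BC005537. The last 2 had a peak in KO, shControl and shDdx5, at a fold of 3.19, 3.96 and 3.22 for Ccdc97 and of 4.19, 2.93 and 3.79 for BC005537. Pileups at these sites, Lars2 aside, ran from 8 to 25 fragments, so a fold seen in one list and not another rests on few fragments.

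**Figure D5:**
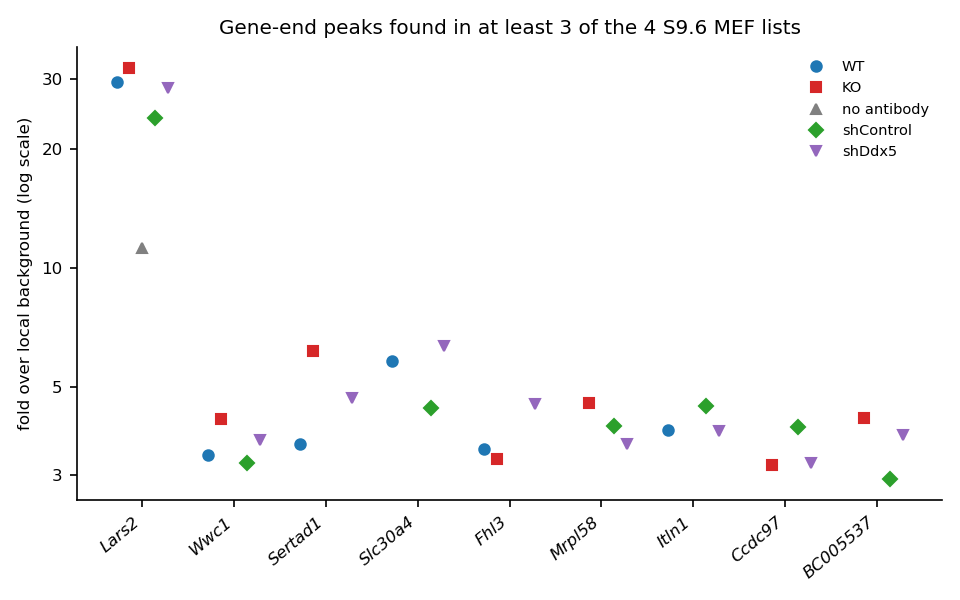
Fold over the local background, on a log axis, of each gene-end peak at the 9 genes that had one in at least 3 of the 4 S9.6 MEF lists. A missing symbol means that the list had no peak at that gene end. Lars2 stood at 23.8 to 32.0 with S9.6 and at 11.3 with no antibody, and all other folds lay between 2.93 and 6.36.

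Among the 3 gene-end peaks of highest q significance in each list, those not named above were Btd, the biotinidase gene, in WT (fold 4.74, 985 bp beyond the end), Ttll7, a tubulin polyglutamylase gene, in shControl (5.29), Ndel1, a dynein regulator gene, in shControl (4.30), and Lias, the lipoic acid synthetase gene, in shDdx5 (5.06). With no antibody they were Clec4a3 (5.04) and Nufip2 (4.74), each on a pileup of 5. In IgG they were TBC1D22A (5.66), WFDC11 (6.11) and ZNF845 (5.79). The TBC1D22A site also held peaks in S9.6 and S9.6 + RNH1.
In S9.6 the leading gene end was that of GNG12, which encodes a G protein gamma subunit, with a fold of 7.14 and a pileup of 32 at chr1:67700530-67701000, 710 bp beyond the end. SLC16A3, the gene of the lactate exporter MCT4, followed with a fold of 4.96, and with 5.19 in S9.6 + RNH1, in an intron at a site that also lies within CSNK1D. DYNC1H1, the cytoplasmic dynein heavy chain gene, had a fold of 6.21, but IgG and FLAG-MCM8 peaks overlapped it. HPD, an enzyme gene of tyrosine breakdown, led S9.6 + RNH1 with a fold of 6.15 and overlapped an S9.6 peak, and DCST2 had 4.66 there, 921 bp beyond its end and inside ZBTB7B.
LY86, which encodes a protein that pairs with the receptor CD180, led FLAG-MCM8 with a fold of 7.47, followed by CCDC115 (6.79) and WDR59, a gene of the GATOR2 complex (6.98). Neither LY86 nor WDR59 overlapped an S9.6 peak.

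The 8 FLAG-MCM8 gene-end peaks that shared a base with S9.6, none of which overlapped IgG, belonged to 8 genes. CCDC115, a factor in V-ATPase assembly, had a FLAG-MCM8 fold of 6.79, an S9.6 fold of 3.56 and an S9.6 + RNH1 fold of 4.19, 520 to 570 bp beyond its end at chr2:130337182-130337543. VPS28, an ESCRT-I subunit gene, had 5.22, 4.33 and 3.73, and ENSG00000269095, whose peaks lay inside the neighbouring gene NR2F6, had 6.65, 5.29 and 3.35.
The next 4 genes had no gene-end peak in S9.6 + RNH1. GNG12 had 5.26 in FLAG-MCM8 and 7.14 in S9.6, TEAD3, a Hippo pathway transcription factor gene, 3.70 and 3.35, C10orf71 3.63 and 3.36, and WDR5, a gene of histone H3 lysine methyltransferase complexes, 3.07 and 2.72. The overlap at TEAD3 nevertheless extended to an S9.6 + RNH1 peak whose midpoint fell outside the rule.

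Genes of the same name carried an end peak in both species more often than others for S9.6. Of 292 genes with an end peak in an S9.6 MEF list and a human counterpart of the same symbol that could qualify, 9 had one in HEK293 S9.6 (3.08%, 1.63 to 5.75), against 1.09% of 9232 other genes, a difference of 1.99 percentage points (0.517 to 4.67). The count was 5 for S9.6 + RNH1 (1.71%), 2 for FLAG-MCM8 (0.685%) and 0 for IgG, where the other genes stood at 1.13%, 0.942% and 0.921%, all within counting error. The 9 genes were Sertad1, Ninj1, Dand5, Dlx2, Gipr, Adora1, Tstd3, Cyp2s1 and Ece1.
By side, 3 of the 9 differed between species, since Adora1, Tstd3 and Cyp2s1 had a midpoint beyond the end in mouse and inside the gene in human. At Sertad1 the side was the same, with summits 604 bp beyond the end in KO MEFs and 376 bp beyond it in HEK293 S9.6, where the fold was 3.55. DLX2, a homeobox gene, had folds of 3.58 in S9.6 and 3.45 in S9.6 + RNH1, and mouse Dlx2 had 4.15 in shControl but also 3.09 with no antibody. Ninj1, which encodes a membrane rupture protein, had 3.29 in KO and 2.92 in shControl, with 2.83 for NINJ1 in S9.6, in the 3′ UTR or an intron. The human folds of the other 6 ran from 3.30 for ECE1 to 4.58 for TSTD3. G + C content was higher at gene ends with a peak in both species, and its part in this overlap was not tested.

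For genes known for R-loops at their ends, the rule left few to examine. Of Actb, Ensa, Gemin7 and Akirin1, only Ensa and Akirin1 in mouse and AKIRIN1 in human had a place where a midpoint could meet the rule. Akirin1 had a gene-end peak in shDdx5 and in no other list, 63 bp inside the end with a fold of 3.53, Ensa had none, and AKIRIN1 had none. Of 27 genes of the cleavage, polyadenylation and termination machinery and the helicases that act on hybrids, 20 were eligible in mouse and 17 in human, and 0 had a gene-end peak in any list, where 3.02% of all eligible mouse genes and 3.58% of human ones had one. With so few eligible genes, a count of 0 cannot be told apart from these shares.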

How the data were processed

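Peak lists of 9 CUT&Tag libraries were analysed, 1 per group, so no test between groups was possible. As deposited, the authors trimmed reads, aligned them with bowtie2 2.2.4 to mm10 or hg38 and called peaks per library with MACS2, version 2.2.7.1 in their methods and 2.1.2 in the submitters' processing notes. The MEF library with no antibody did not serve as input, and the thresholds of the caller are not given in the sources used here. The methods select HEK293 peaks by a fold above 2 and a p below 0.05, but the deposited lists hold folds down to 1.72 and were used whole. By their values the lowest −log10 p was 3.00 in the MEF lists and 5.00 in HEK293 lists. The deposited columns hold a fold (ratio) over local background, the −log10 p and −log10 q, and a score that is a multiple of the −log10 p and was not used; read totals were not used, and pileups were solved from the deposited fold and p, for at least 99.9% of the peaks of each list.

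Peaks were placed against GENCODE by midpoint, and side by the strand of the nearest gene end. Shares have Wilson, differences Newcombe and ratios log-scale Poisson 95% intervals, computed with Python 3.11.15 and SciPy 1.17.1. Code was tested on simulated data, in which all 6300 placed peaks and all 985 pileups were recovered. Named genes were those with an end peak in at least 3 S9.6 MEF lists, the 3 of lowest q per list, genes shared by FLAG-MCM8 and S9.6 peaks, genes shared by both species, and 2 gene lists. Members and lists were chosen with earlier results of these data known. Alternatives changed the q, the fold, the window, the TSS distance, the reference point and the overlap. The values of 1 gene shared by FLAG-MCM8 and S9.6 are not reported here.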

Additional observations from a re-analysis of the deposited data

Results flagged for a closer look

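Both perturbations were tested in MEFs against a control of the same cell type, and the number of gene-end peaks moved in opposite directions. It was higher by 29 in KO than in WT and fell by 54 from shControl to shDdx5 (−54). The whole lists moved in the same directions, with 9605 peaks against 6481 (ratio 1.48) and 11768 against 12259 (0.960). So did gene interiors, with ratios of 1.53 and 0.765. The difference at gene ends was not tested, since each arm held 1 library. With a q of 0.05 or lower both counts were higher in the perturbed cells, 31 against 16 in KO and 62 against 34 in shDdx5, as were those of the whole lists, 3472 against 2118 and 7119 against 3442. No group held enough libraries to look for a library apart from the others.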

How the results depend on the processing

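Of 280 values of 35 results under 10 alternatives, 215 moved by less than their error, 53 moved by more, and 12 that had passed counting error changed direction. Values near 1 also crossed it in the first 2 sets. None moved by more than its error with summits in place of midpoints, with ends of all transcripts or with RefSeq starts added. The last was chosen after seeing the data. Nor did any without peaks that overlap a control peak, which gives no value for the control lists or FLAG-MCM8 to IgG. Calls could still be lost under these settings, as given above for density in shDdx5 and side in FLAG-MCM8. The cause was not tested for any value below. No paired analysis was possible because every group held 1 library.

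At a fold of at least 4, density relative to gene interiors was 0.831 (WT), 0.967 (shControl), 1.33 (S9.6) and 1.57 (S9.6 + RNH1), and relative to the rest of the genome 0.494 (WT), 0.776 (KO), 0.707 (shControl), 0.575 (shDdx5), 0.868 (S9.6) and 1.04 (S9.6 + RNH1). The downstream share was 42.9% (WT), 64.7% (shControl) and 63.8% (S9.6 + RNH1), and the overlap 11.1% (KO with WT) and 12.3% (S9.6 with S9.6 + RNH1). The count ratio was 2.57 (KO to WT), 1.12 (shDdx5 to shControl) and 1.38 (FLAG-MCM8 to IgG). That of KO to WT rested on 18 against 7 peaks (1.07 to 6.16). At this fold the whole lists had a KO to WT ratio of 1.64 and gene interiors 1.61.

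At a q of 0.05 or lower, chosen after seeing the data for the MEF lists, density relative to gene interiors was 1.54 (KO) and 0.772 (no antibody), and relative to the rest 0.772 (WT), 0.914 (KO), 0.811 (no antibody) and 1.01 (shControl). The downstream share was 68.8% (WT) and 66.7% (no antibody), and the count ratio 1.94 (KO to WT) and 1.82 (shDdx5 to shControl).

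At a q of 1e-05 or lower, 1 to 3 gene-end peaks were left per MEF list. Density relative to gene interiors was 6.56 (WT), 5.10 (KO), 15.3 (no antibody), 2.55 (shControl) and 1.61 (shDdx5), and relative to the rest 0.556 (KO), 14.5 (no antibody), 0.515 (shControl), 0.214 (shDdx5), 1.03 (S9.6) and 1.28 (S9.6 + RNH1). The downstream share was 33.3% (WT), 0% (no antibody, shControl and shDdx5) and 60.3% (S9.6), the count ratio 0.667 (KO to WT), 2 (shDdx5 to shControl) and 0.560 (FLAG-MCM8 to IgG), and the overlap 50% (KO with WT, and shDdx5 with shControl).

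Within 500 bp, density relative to gene interiors was 1.14 (WT), 0.904 (shDdx5), 1.46 (S9.6) and 1.79 (S9.6 + RNH1), and relative to the rest 1.03 (WT), 0.738 (shDdx5), 1.02 (S9.6) and 1.26 (S9.6 + RNH1). The downstream share was 64.8% (KO), 45.3% (IgG) and 39.0% (S9.6), and the overlap of S9.6 with S9.6 + RNH1 15.3%. Over 5 kb from a TSS, density relative to the rest was 1.15 (S9.6) and 1.40 (S9.6 + RNH1). With 50% of both peaks in common, the overlap was 6.19% (shDdx5 with shControl) and 13.5% (S9.6 with S9.6 + RNH1). Pileups of about 9 fragments limit what the MEF lists can show.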
